A study of Homo sapiens with 8 samples.

Results

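The nuclear genes for the respiratory chain and the ATP synthase were examined on 8 two-colour expression arrays of lung cancer cell lines. Members were the protein-coding genes whose current symbol begins with NDUFA, NDUFB, NDUFC, NDUFS, NDUFV, UQCR, COX4 to COX8 or ATP5, together with SDHA to SDHD. Pseudogenes, NDUFAF assembly factors, noncoding genes and readthrough genes were left out, and the choice used no measured value. This gave 86 genes, of which 37 belong to complex I, 4 to complex II, 9 to complex III, 17 to complex IV and 19 to the ATP synthase. A probe was present for 84 of them among 22439 named genes. COX7A1 and UQCRHL had no probe under a matched accession, COX7B2 never rose above background, and 80 members were measured on all 8 arrays.

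The series compared treated with control RNA on each array, treated RNA in the red channel (Cy5) and control RNA in the green channel (Cy3). The microRNA miR-150-3p was transfected into EBC-1 cells and into SK-MES-1 cells, both from squamous cell carcinoma of the lung, 1 array each. The small cell line SBC-3 was transfected with siDONSON-1, siDONSON-2 or siDONSON-3, which are small interfering RNAs against DONSON, a replication factor gene, 1 array each. The adenocarcinoma line A549 carried LOXL2 knocked down through CRISPR/Cas9 genome editing in 3 samples, A549-GE1 to A549-GE3, LOXL2 being a lysyl oxidase gene. Controls were mock or untransfected cells of the same line for the transfections and unedited A549 cells for the edited samples. The labels do not say whether the edited samples are clones, whether the arrays of a group came from separate cultures, or whether their controls share 1 RNA. The p-values below therefore measure only the spread between these arrays, with 1 estimate shared by all groups. That spread includes the difference between EBC-1 and SK-MES-1 and the differences between the 3 siDONSON molecules.

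Complexes I to IV of the inner mitochondrial membrane pass electrons from NADH and succinate to oxygen. Complexes I, III and IV also pump protons, and the ATP synthase uses the returning protons to make ATP. Most subunits are encoded in the nucleus and imported, while a few core subunits come from mitochondrial DNA. Nuclear respiratory factor 1 (NRF1), the ETS factor GABPA and YY1 are known regulators of many of these genes. The mitochondrially encoded subunits had no probe here, so the data concern the nuclear part of each complex. Transcripts were measured, not proteins, respiration or the number of mitochondria.

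Promoters of 70 members were present in the RefSeq set (GRCh38.p14, 250 bases before to 50 bases after the start), and they were searched on both strands for 3 short motifs. The NRF1 core GCGCATGCG was found in 10 of the 70 (14.3%) against 2.76% of 15843 protein-coding promoters. The ETS core CCGGAAG was found in 20 (28.6% against 14.2%), and the YY1 core AAGATGGC in 11 (15.7% against 3.91%). A promoter may hold more than 1 motif, and the NRF1 core can overlap its own reverse complement. A match is a description of letters and not a bound site. The 120 bases before the start are shown for 4 members that the results return to, with motif letters in capitals: SDHD, COX8A and UQCRH were the lowest members of complexes II, IV and III on the EBC-1 array, and NDUFB7 was below 0 on all 8 arrays. Each is read along the strand of its gene.
SDHD, chr11:112086753-112086872, plus strand: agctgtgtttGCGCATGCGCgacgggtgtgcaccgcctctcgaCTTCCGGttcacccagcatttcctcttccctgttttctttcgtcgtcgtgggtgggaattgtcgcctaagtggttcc
COX8A, chr11:63974500-63974619, plus strand: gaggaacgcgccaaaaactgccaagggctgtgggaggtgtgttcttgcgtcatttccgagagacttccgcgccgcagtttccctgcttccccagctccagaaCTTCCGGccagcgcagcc
UQCRH, chr1:46303578-46303697, plus strand: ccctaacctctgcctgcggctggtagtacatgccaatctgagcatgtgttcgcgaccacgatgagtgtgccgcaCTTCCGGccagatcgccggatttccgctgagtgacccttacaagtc
NDUFB7, chr19:14572067-14572186, minus strand: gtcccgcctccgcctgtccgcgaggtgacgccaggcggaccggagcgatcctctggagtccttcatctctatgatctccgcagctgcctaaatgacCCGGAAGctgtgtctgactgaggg
SDHD holds the NRF1 core on both strands, the overlapping copies beginning at -110 and -109 bases from the start, and an ETS core at -77 that overlaps neither. COX8A, UQCRH and NDUFB7 each hold 1 ETS core, at -18, -46 and -24.

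The values are log2 ratios of treated over control signal after the scanner software's own background and dye correction, so that 1 is a 2-fold change. Spots called outliers were dropped, a spot was counted where at least 1 channel stood well above background, and probes of a gene were averaged. The targeted genes behaved as the labels say: DONSON had log2 ratios of -2.15, -1.79 and -2.11 with siDONSON-1, -2 and -3, and LOXL2 had -2.49, -2.67 and -2.59 in A549-GE1 to A549-GE3. Both were past the threshold (limma, adjusted p = 0.00168 and 0.00126). DONSON was also at -1.02 on the EBC-1 array. Between 14759 and 16178 genes were measured per array, and the red channel had more spots above background than the green one on every array (48.5 to 56.2% against 41.1 to 46.4%). Of 8 squamous markers, 1 (SOX2) was above background in the EBC-1 control and 4 in the SK-MES-1 control, among them TP63. SBC-3 control RNA had 4 of 8 neuroendocrine markers, among them NEUROD1 and SYP, and TP63 and SOX2 of the squamous list. The summed level of that neuroendocrine list was nevertheless 1.53 times the median probe in SBC-3, below 210 in SK-MES-1 and 125 in A549, where UCHL1 was above background. The squamous list summed to 24.6 in SBC-3, above 0.27 in EBC-1, 0.80 in SK-MES-1 and 0.75 in A549. A549 and EBC-1 had KRT7, KRT8, KRT18 and NAPSA of the adenocarcinoma list, SK-MES-1 these and SFTPC, and SBC-3 the 3 keratins. In whole cultures, fewer cells of a type and less RNA per cell cannot be told apart.

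Members as a group stayed near 0 on every array. The median over members was -0.04 in EBC-1, 0.02 in SK-MES-1 cells, -0.14, 0.05 and -0.05 with siDONSON-1, -2 and -3, and 0.02, 0.04 and 0.03 in A549-GE1 to A549-GE3. The median over all genes lay between 0.02 and 0.05 on the same arrays. The siDONSON-1 array had the lowest member median, with 74.1% of members below 0 against 45.5% of all genes, and the siDONSON-2 array lay on the other side of 0 with 39.0% below 0. The member medians of the 3 siDONSON arrays thus did not share a direction. The SK-MES-1 median turned to -0.0054 after median centering, the side of EBC-1.

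**Figure D1:**
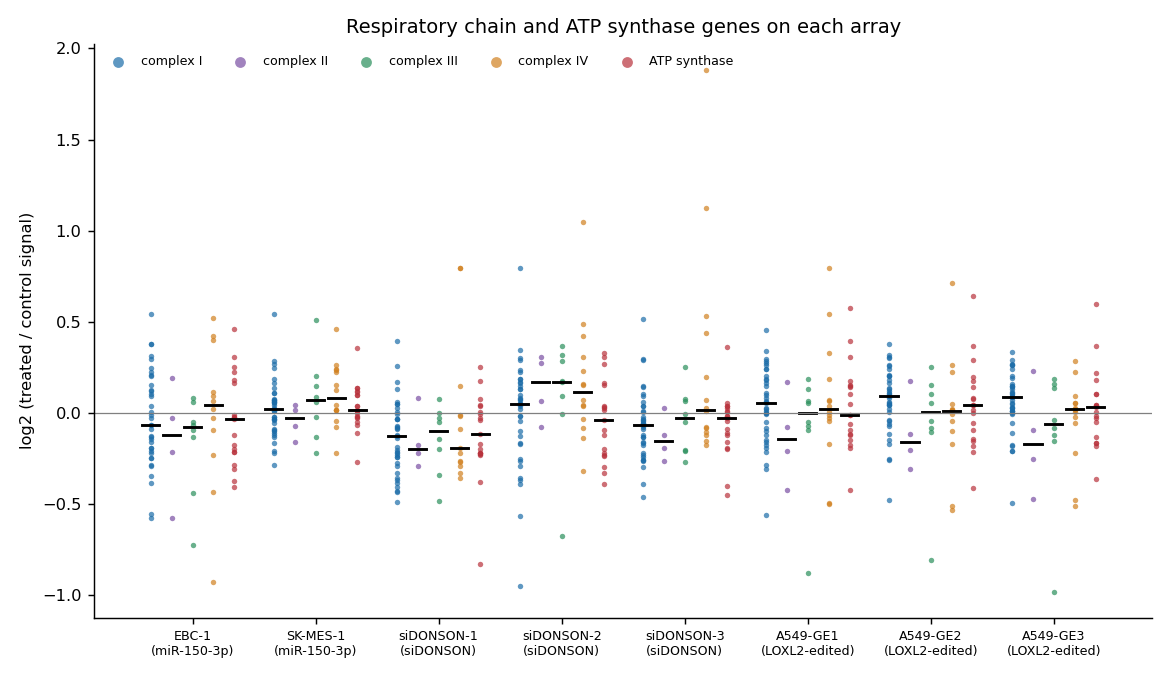
Each point is the log2 ratio of treated over control signal (vertical axis) of 1 member on 1 of the 8 arrays (horizontal axis), coloured by complex, and each black bar is the median of that complex. All medians lie within 0.2 of 0; the highest points with the siDONSON arrays are COX8C, COX4I2, COX6B2 and NDUFA5.

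By complex, the medians differed little. Complex I, which takes electrons from NADH, had medians between -0.13 and 0.09. Its 7 core subunits, which carry the flavin and iron-sulfur clusters, had medians between -0.24 (siDONSON-1) and 0.13 (siDONSON-2), and all 7 were above 0 on the siDONSON-2 array. Complex II, the succinate dehydrogenase, lay between -0.20 and 0.17 over 4 genes. Complex III, which passes electrons from ubiquinol to cytochrome c, lay between -0.10 and 0.17. Complex IV, the cytochrome c oxidase, lay between -0.19 and 0.11, and the ATP synthase between -0.12 and 0.04. The F1 sector, the catalytic head with its central stalk, spread widely in A549-GE2, from -0.42 for ATP5F1B to 0.64 for ATP5F1E, while its median was -0.10.

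In the LOXL2-edited cells, 6 members were lower and 2 higher than control among 82 tested (limma, 3 arrays, Benjamini-Hochberg adjusted p under 0.05). Over all genes, 6.77% were called lower and 7.58% higher in this comparison, so the members' 7.32% lower was near the background and their 2.44% higher below it. The lower genes were UQCRB, COX6C, NDUFB9, COX7A2L, ATP5F1B and SDHD, and the higher ones ATP5F1E and NDUFA5. They come from all 5 complexes. Of the adenocarcinoma markers, KRT8 was at -0.53, KRT18 at -0.75 and NAPSA at 0.999 in the same cells (adjusted p = 0.00918, 0.00416 and 0.0413), and the part of such a shift in the members' values was not tested.

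UQCRB, a small complex III subunit near the quinone site, had log2 ratios of -0.88, -0.81 and -0.98 in A549-GE1 to A549-GE3, a mean of -0.89 ± 0.13 (SE, adjusted p = 0.0068). On the other 5 arrays it lay between -0.09 and 0.51 (SK-MES-1 the highest). Its 2 probes fell to different depths in A549: the first gave -0.52, -0.56 and -0.62, the second -1.24, -1.06 and -1.35. In SK-MES-1 they were at 0.03 and 0.99, so the size of its ratio depends on the probe. COX6C, an accessory subunit of complex IV, had -0.50, -0.53 and -0.51 (mean -0.52 ± 0.09 SE, adjusted p = 0.011), below its values of -0.33 to 0.23 elsewhere. NDUFB9, an accessory subunit of the membrane arm of complex I, had -0.56, -0.48 and -0.50 (mean -0.51 ± 0.12 SE, adjusted p = 0.0286), below -0.25 to 0.35 elsewhere.

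COX7A2L, a factor that joins complexes III and IV into supercomplexes, had -0.50, -0.51 and -0.48 in the edited cells (mean -0.49 ± 0.10 SE, adjusted p = 0.0209). It was between -0.01 and 0.44 on the other 5 arrays, and both its probes were between -0.53 and -0.43 in the edited cells. ATP5F1B, the catalytic beta subunit of the ATP synthase, had -0.42, -0.42 and -0.37 (mean -0.40 ± 0.09 SE, adjusted p = 0.0274) against -0.16 to 0.17 elsewhere. SDHD, a membrane anchor of complex II, had -0.42, -0.31 and -0.47 (mean -0.40 ± 0.11 SE, adjusted p = 0.047). Unlike the others it overlapped with another array, being -0.58 in EBC-1. These genes were chosen because they were called in the edited cells, and no share of all genes without overlap is given. A lack of overlap therefore does not tell these members from genes in general.

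ATP5F1E, the epsilon subunit of the central stalk, rose to 0.57, 0.64 and 0.60 (mean 0.60 ± 0.08 SE, adjusted p = 0.00369) and lay between 0.02 and 0.18 on the other arrays. NDUFA5, an accessory subunit of the peripheral arm of complex I, had 0.45, 0.38 and 0.34 (mean 0.39 ± 0.10 SE, adjusted p = 0.0408) and overlapped with the other groups. Of the remaining genes, the highest of complex II was SDHA, the flavoprotein, at 0.19, that of complex III was UQCRQ at 0.21 and that of complex IV was COX6B2 at 0.37, all as means over 3 arrays and none past the threshold. The calls depended on having 3 edited arrays. Without A549-GE1 or without A549-GE2 the calls were UQCRB lower and ATP5F1E higher, without A549-GE3 only ATP5F1E was called. SDHD was not called without siDONSON-1, and SDHD and NDUFA5 were not called without siDONSON-3.

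**Figure D2:**
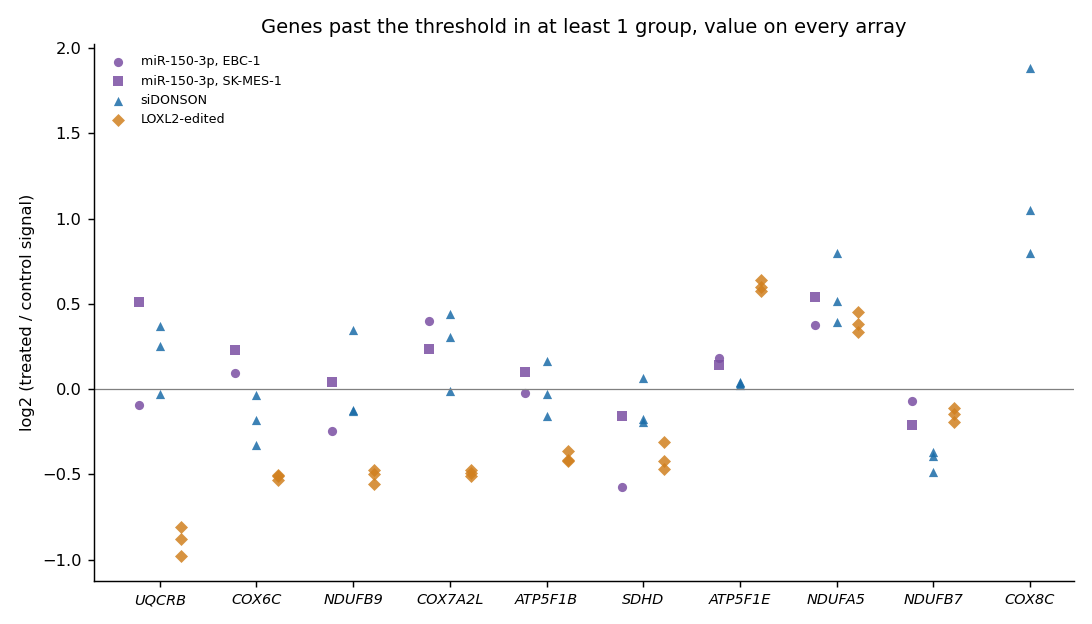
Each marker is the log2 ratio of treated over control signal (vertical axis) of 1 of the 10 genes past the threshold in at least 1 group (horizontal axis) on 1 array, with circles and squares for the miR-150-3p arrays, triangles for siDONSON and diamonds for LOXL2-edited. COX8C has values with siDONSON only, the 3 diamonds of each other gene lie within 0.2 of each other, and NDUFA5 is above 0 on all 8 arrays.

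The called genes of the edited cells were set against the genes beside them on the chromosome. For each gene, up to 25 measured genes on either side in RefSeq gene order, members left out, gave a neighbour median on each array. UQCRB, COX6C and NDUFB9 all lie on chromosome 8, and their neighbours had means over the 3 edited arrays of -0.52, -0.56 and -0.43. CYC1, the cytochrome c1 gene, codes for a further complex III subunit and is no member. It also lies on chromosome 8 and had -0.51 ± 0.12 (SE, limma, adjusted p = 0.0298) with neighbours at -0.31. COX7A2L on chromosome 2 had neighbours at -0.32, and ATP5F1B on chromosome 12 had neighbours at -0.18. ATP5F1E on chromosome 20 had neighbours at 0.39. SDHD on chromosome 11, itself lower, had neighbours at 0.13, and NDUFA5 on chromosome 7 had neighbours at 0.08.

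Medians over whole chromosomes also differed in the edited cells. Over 446 genes of chromosome 20 the median was 0.285, with 16.1% below 0, and over 802 genes of chromosome 12 it was -0.16, with 70.9% below 0. All 5 members on chromosome 12 were below 0 in the edited cells: ATP5F1B, NDUFA9 at -0.21, COX6A1 at -0.19, ATP5MC2 at -0.15 and NDUFA12 at -0.15. Of the 6 members on chromosome 2, 3 were below 0, where the chromosome median was -0.10 over 1024 genes. Chromosome 8 as a whole was at -0.03 over 528 genes, above the neighbours of its 3 members, and the neighbours of LOXL2, which lies on the same chromosome, were at 0.02.

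Across members the correlation between a gene and its neighbours was higher on the edited arrays than on the other 5. Pearson's r was 0.62, 0.69 and 0.65 over 82 members in A549-GE1 to A549-GE3 (Spearman's rho 0.41, 0.36 and 0.28). Without the 3 members on chromosome 8, r was 0.45, 0.52 and 0.41 over 79 (rho 0.34, 0.29 and 0.19). Over all measured members r was 0.145 in EBC-1, 0.12 in SK-MES-1 and between -0.11 and -0.04 on the siDONSON arrays. Over other genes r was 0.17 to 0.21 on the edited arrays (rho 0.18, 0.18 and 0.23) and 0.04 to 0.08 on the rest. By rank, members outside chromosome 8 thus lay below other genes in A549-GE3. Genes on 1 array share its hybridization and nearby genes share neighbours, so these are descriptions across genes and carry no test.

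When the neighbour median was subtracted from every gene and the model fitted again, 1 member was called in the edited cells, SDHD, at -0.53 (adjusted p = 0.0199). UQCRB stood at -0.37 (adjusted p = 0.135), ATP5F1E at 0.22 (0.133), ATP5F1B at -0.22 (0.176) and COX7A2L at -0.17 (0.338). NDUFA5 stood at 0.31 (adjusted p = 0.0972), little below its 0.39 before. NDUFB9 at -0.08 and COX6C at 0.05 were near their neighbours. This fit was added after the data were seen. DNA copy number was not measured, and its part in these values was not tested.

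**Figure D3:**
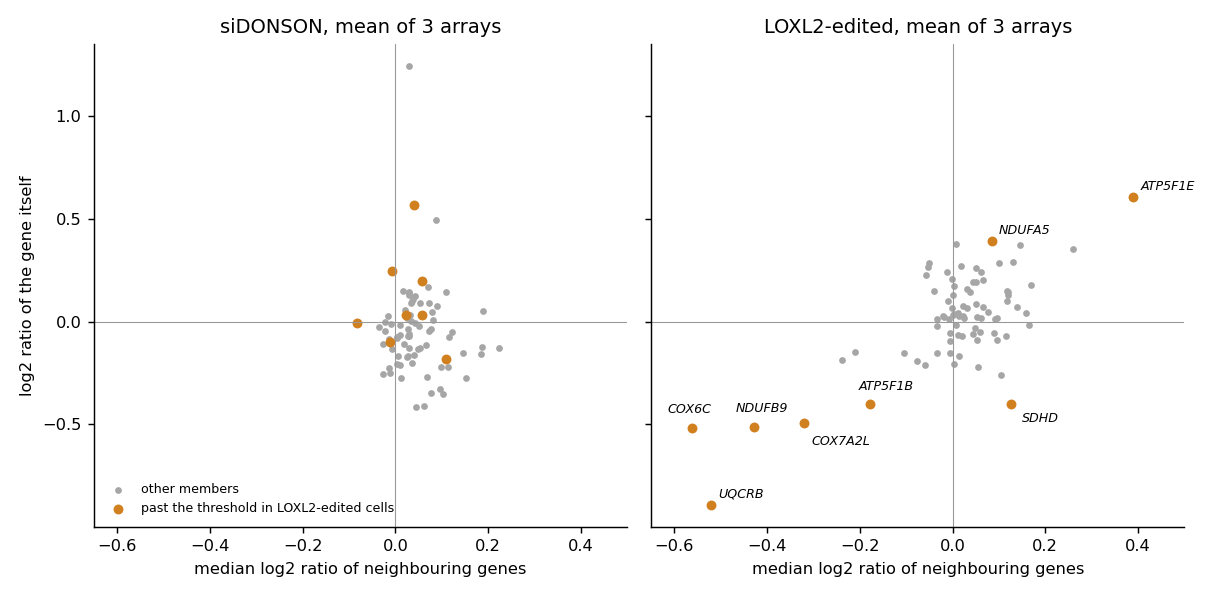
Each point is 1 member, with the median log2 ratio of its neighbouring genes on the horizontal axis and its own log2 ratio on the vertical axis, as means over 3 arrays for siDONSON (left) and LOXL2-edited (right). Orange points passed the threshold in LOXL2-edited cells; on the right, 5 of the 8 lie at the lower left and ATP5F1E at the upper right, SDHD lies opposite its neighbours, and NDUFA5 has neighbours at 0.08.

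With siDONSON in SBC-3, 1 member was lower and 2 were higher among 81 tested (1.23% and 2.47%), where 3.21% of all genes were called lower and 4.01% higher. NDUFB7, an accessory subunit of the membrane arm of complex I, had -0.49, -0.37 and -0.39 with siDONSON-1, -2 and -3 (mean -0.42 ± 0.08 SE, adjusted p = 0.0267). It was also below 0 on the 5 other arrays, from -0.21 to -0.07. NDUFA5 had 0.39, 0.80 and 0.52 (mean 0.57 ± 0.10 SE, adjusted p = 0.0221). COX8C, the testis form of the complex IV subunit 8, had 0.80, 1.05 and 1.88 (mean 1.24 ± 0.23 SE, adjusted p = 0.0486). Its control signal was well above background on 2 of the 3 arrays, so that on 1 array it was counted through the treated channel alone and its ratio there rests on a signal near background. After normexp and loess it stood at 0.22 (adjusted p = 0.0816), and it was not measured in the other lines. With both channels required above background it lacked a value on 1 array and was not tested.

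These calls depended on single arrays. All 3 were lost without siDONSON-3, and NDUFB7 and COX8C were lost without siDONSON-1. Without siDONSON-2, NDUFS1 was called lower beside NDUFB7, and COX8C was lost. Without A549-GE1 only NDUFA5 was called, and without A549-GE2 or A549-GE3 none was. The arrays of all groups share 1 estimate of the spread in this model. The control channels of the siDONSON arrays differed by an SD of 0.17 over spots while the treated channels differed by 0.36 to 0.50. In A549 the treated channels differed by 0.15 to 0.19.

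Some members differed between the siDONSON molecules. NDUFB5, an accessory subunit of complex I, was at -0.95 with siDONSON-2 on both its probes (-0.89 and -1.01) and at -0.03 and 0.01 with siDONSON-1 and -3. ATP5F1C, the gamma subunit of the central stalk, was at -0.83 with siDONSON-1 and at 0.02 and 0.05 with the other two. UQCR11, the smallest complex III subunit, was at -0.68 with siDONSON-2, -0.34 with siDONSON-1 and -0.21 with siDONSON-3. CYCS, cytochrome c itself and no member, was at -1.14 with siDONSON-1, 0.36 with siDONSON-2 and -0.10 with siDONSON-3. The software's own error was 0.22, 0.22 and 0.21 for the low ratios of NDUFB5, ATP5F1C and UQCR11, and each such value rests on 1 array.

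Over members, 1, 3 and 0 were below -0.5 with siDONSON-1, -2 and -3 (all genes 9.23, 10.2 and 8.82%), and 2, 2 and 4 were above 0.5 (all genes 14.8, 13 and 12.5%). ATP5MF, a subunit of the membrane part of the ATP synthase, had -0.38, -0.23 and -0.45, a mean of -0.35 that missed the threshold and was called after median centering. UQCRB at 0.20, SDHA at 0.14 and ATP5MJ at 0.13 were the highest of complexes III and II and of the ATP synthase. SDHC at -0.21 and COX5A at -0.20 were the lowest of complexes II and IV.

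With miR-150-3p no member passed the threshold among 80 tested over EBC-1 and SK-MES-1 (limma), where 2.9% of all genes were called lower and 2.47% higher. Of the 3 squamous markers tested, KRT14 was at 1.45 (adjusted p = 0.0295), and TP63 at 0.31 and SOX2 at 0.20 were not called. KRT14 was not above background in the EBC-1 control, so its ratio of 1.77 there rests on a signal near background. SOX2 was at 1.32 in EBC-1 and at -0.92 in SK-MES-1. The part of such shifts in the members' values was not tested. At an unadjusted p under 0.05 there were 13, of which 6 were lower and 7 higher, where all genes had 14.9% lower and 15.1% higher. After normexp background correction and loess normalization 3 were lower and 4 higher, where all genes had 5.1% and 5.69%. The lines differed in how far members moved. In EBC-1, 5 members were below -0.5 (6.25%, against 16.5% of all genes) and 2 were above 0.5 (2.5% against 19.6%). In SK-MES-1 none was below -0.5 (all genes 6.59%) and 2 were above 0.5 (all genes 9.71%).

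The 5 low members in EBC-1 come from 4 complexes. COX8A, the ubiquitous form of complex IV subunit 8, was at -0.93, with probes at -0.93 and -0.92, against -0.22 in SK-MES-1. UQCRH, the hinge protein of complex III, was at -0.73 with probes at -0.78 and -0.68, against -0.22 in SK-MES-1. SDHD was at -0.58 there and at -0.16 in the other line. NDUFA12, an accessory subunit of complex I, was at -0.58 and -0.13, and NDUFB6 at -0.56 and -0.04, EBC-1 given first. NDUFV2, a core iron-sulfur subunit of complex I, was the highest member in EBC-1 at 0.54, against 0.06 in SK-MES-1. These 6 were chosen for their values in EBC-1. All were on the same side of 0 in SK-MES-1, but NDUFB6 and NDUFV2 lay close to 0 there, the probes of NDUFV2 at 0.13 and -0.01. No share over all genes is given, so this does not tell members from genes in general.

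Without the SK-MES-1 array, where EBC-1 is assumed to vary like the other groups, those same 5 members were called lower and NDUFV2 higher. Without the EBC-1 array none was called, and without siDONSON-2 ATP5MJ and NDUFA5 were called higher. The group means of the lowest members were -0.57 ± 0.16 (SE, adjusted p = 0.0721) for COX8A and -0.48 ± 0.14 (SE, adjusted p = 0.0841) for UQCRH. ATP5MC3, 1 of 3 genes for the membrane ring subunit c, was the lowest of the ATP synthase at -0.34, and ATP5MJ, a small membrane-part subunit, the highest at 0.41. SDHC at 0.12, UQCRB at 0.21 and COX6B2 at 0.49 were the highest of complexes II, III and IV. The 3 genes ATP5MC1, ATP5MC2 and ATP5MC3, which make the same mature protein, had -0.02, -0.31 and -0.41 with miR-150-3p in EBC-1 cells. In the SK-MES-1 cells they had 0.01, -0.02 and -0.27.

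NDUFA5 was higher on every array, from 0.34 in A549-GE3 to 0.80 with siDONSON-2, and did not differ past the threshold between any groups (adjusted p = 0.484 to 0.838). ATP5F1E, NDUFV2 and COX6B2 were also above 0 on all 8 arrays, and NDUFB7, NDUFAB1, ATP5MC2 and ATP5PO were below 0 on all 8. That is 5% of 80 members in each direction, where all genes had 6.48% above and 4.85% below. Treated RNA was always in the red channel, so for such genes a dye effect and a treatment effect cannot be told apart.

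Direct comparisons between the treatments found differences in 4 members, UQCRB, COX7A2L, COX6C and ATP5F1E. SiDONSON minus LOXL2-edited gave UQCRB 1.09 ± 0.18 (SE, adjusted p = 0.0171) and COX7A2L 0.74 ± 0.14 (SE, adjusted p = 0.0253) higher and ATP5F1E -0.57 ± 0.11 (SE, adjusted p = 0.0218) lower. That is 1.25% of 80 members lower and 2.5% higher, where all genes had 3.51 and 3.79%. With the replicate number as a block only UQCRB was called. MiR-150-3p minus LOXL2-edited gave UQCRB 1.098 ± 0.21, COX7A2L 0.81 ± 0.16 and COX6C 0.68 ± 0.14 higher (SE, adjusted p = 0.0367, 0.0412 and 0.0429), 3.75% of members against 1.73% of all genes, and none lower against 1.87%. Both contrasts share the edited arrays. The probes of UQCRB fell to different depths in the edited cells, so the size of its differences depends on the probe. With the brightest probe miR-150-3p minus LOXL2-edited called COX6C and COX7A2L but not UQCRB. Without any 1 of the edited arrays, and after subtraction of the neighbour median, neither contrast called a member. Without siDONSON-3 the first called none and the second COX7A2L, and without EBC-1 the second called UQCRB. MiR-150-3p minus siDONSON called none (all genes 1.56% lower and 1.13% higher), and 8 had an unadjusted p under 0.05, as did 22.9% of all genes. The treatments differ in cell line as well, and treatment and line cannot be told apart.

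Isoforms known for restricted expression were mostly dim. COX4I2 and COX6A2, the lung and muscle forms, were never well above background in a control channel, and COX7B2 in no channel. COX6B2, the testis form of subunit 6B, was above 0 on all arrays, but its 2 probes disagreed, for example 1.19 and 0.41 in A549-GE1. The ubiquitous partners COX4I1, COX6A1, COX6B1, COX7A2, COX7B and COX8A were above background in both channels on all 8 arrays, and none passed the threshold. NDUFA4L2, called COXFA4L2 in current RefSeq and hence no member, was measured with siDONSON only, at 0.15, 0.58 and 0.69.

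The control channels show how the same probes stood in control cells. These were mock or untransfected cells for the transfections and unedited A549 cells for the edited samples. The kind of control may therefore differ between lines, and its part in the levels was not tested. Levels were taken as log2 of the green signal relative to the median measured probe of that channel. Of 80 members measured in all 4 lines, 36 (45%) differed by more than 1 between the highest and the lowest line, against 68.8% of 11298 genes. Only 1 control channel exists for EBC-1 and for SK-MES-1, so no test was made.

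EBC-1 held the highest value for 33 members (41.2%, against 33.6% of all genes) and SBC-3 the lowest for 30 (37.5% against 29%). ATP5MF had the widest range, 2.88, at 6.52 in EBC-1, 4.64 in SK-MES-1, 3.63 in SBC-3 and 4.93 in A549. NDUFS6, a zinc-binding subunit of complex I, was at 6.10, 5.13, 3.64 and 4.15 in the same order. ATP5MC1 ran the other way, highest in A549 at 4.82 and lowest in SBC-3 at 2.88. NDUFA2 hardly differed, from 4.32 to 4.50. The control channels of 1 line differed far less, for ATP5MF by an SD of 0.03 in SBC-3 and in A549.

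**Figure D4:**
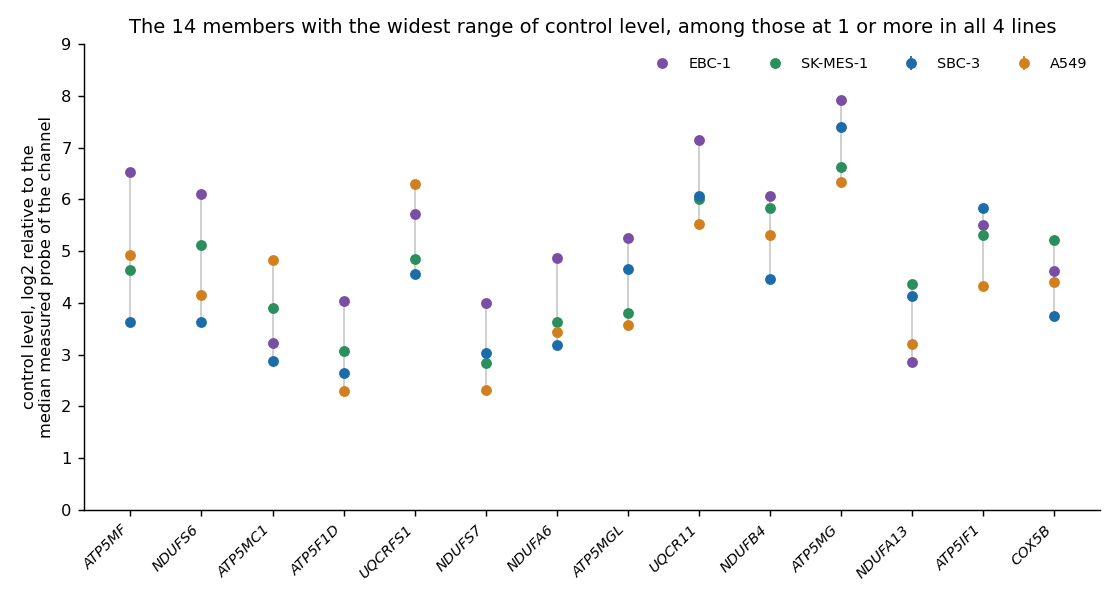
The level in the control (Cy3) channel, as log2 relative to the median measured probe (vertical axis), is shown for the 14 members with the widest range over 4 lines (horizontal axis), leaving out members with a level below 1 in any line and COX6B2, whose A549 channels differed by an SD of 1.87. Points for SBC-3 and A549 are means of 3 channels with SD bars, mostly smaller than the points, and EBC-1 and SK-MES-1 are single channels; EBC-1 is the highest line for 9 of them.

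Genes that serve the same pathway were read from companion lists. In EBC-1 the mitochondrial ribosomal proteins, which translate the mitochondrially encoded subunits, had a median of -0.34 with 65 of 77 below 0, complex I assembly factors -0.40 with 15 of 18 below 0, and tricarboxylic acid cycle enzymes -0.35 with 9 of 13 below 0. The members had -0.04 on that array and all genes 0.05. In SK-MES-1 the same lists were at -0.08, -0.09 and -0.18. Over both lines 6 of 77 ribosomal proteins were called lower and none higher, where all genes had 2.9% and 2.47%. FH, the fumarase, was called lower at -0.94 ± 0.18 (SE, adjusted p = 0.037; -1.36 in EBC-1, -0.51 in SK-MES-1), and DLD, a shared dehydrogenase subunit, higher at 0.56. With siDONSON 4 ribosomal proteins were lower and 2 higher (all genes 3.21% and 4.01%), and in edited cells 7 were lower and 1 higher (all genes 6.77% and 7.58%). Of the cycle enzymes SUCLG1 was lower in edited cells, at -0.58. With miR-150-3p none of 18 complex I assembly factors was called.

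NRF1, the regulator named above, was at -1.39 in EBC-1, against -0.56 in SK-MES-1 (mean -0.98 ± 0.20 SE, adjusted p = 0.0418). On the EBC-1 array the 10 members with an NRF1 core in the promoter had a median of -0.16, and those without it -0.03. Members with a YY1 core were at -0.13 and those with an ETS core at -0.08, both against -0.03 without, while YY1 itself was at 0.29 and GABPA at 0.12. In A549-GE1 the members with and without an NRF1 core were at -0.09 and 0.06, the widest gap of all arrays. They were at 0.04 and 0.06 with siDONSON-2 and at -0.07 and -0.05 with siDONSON-3. Members with the core had the lower median on every array, and a part of these factors in the members' values was not tested. In LOXL2-edited cells 4 of 17 biogenesis regulators were called lower, ESRRA, PPARGC1B, POLG2 and TWNK, and none higher (all genes 6.77% and 7.58%), with list medians of -0.17, -0.20 and -0.27. ESRRA, a nuclear receptor, was at -0.46 ± 0.09 (SE, adjusted p = 0.0166). With siDONSON 1 of 17 was called, MTERF1, higher. Of the assembly lists for complexes I to IV and the ATP synthase, at most 1 gene was called in each direction in any group: NDUFAF3 with siDONSON and NDUFAF7 in edited cells were lower, BCS1L was lower and COX19 higher with miR-150-3p, UQCC6 and COX19 were higher with siDONSON, and in edited cells LRPPRC was lower and UQCC5 and PET117 higher. No complex II or ATP synthase assembly gene was called against control.

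**Figure D5:**
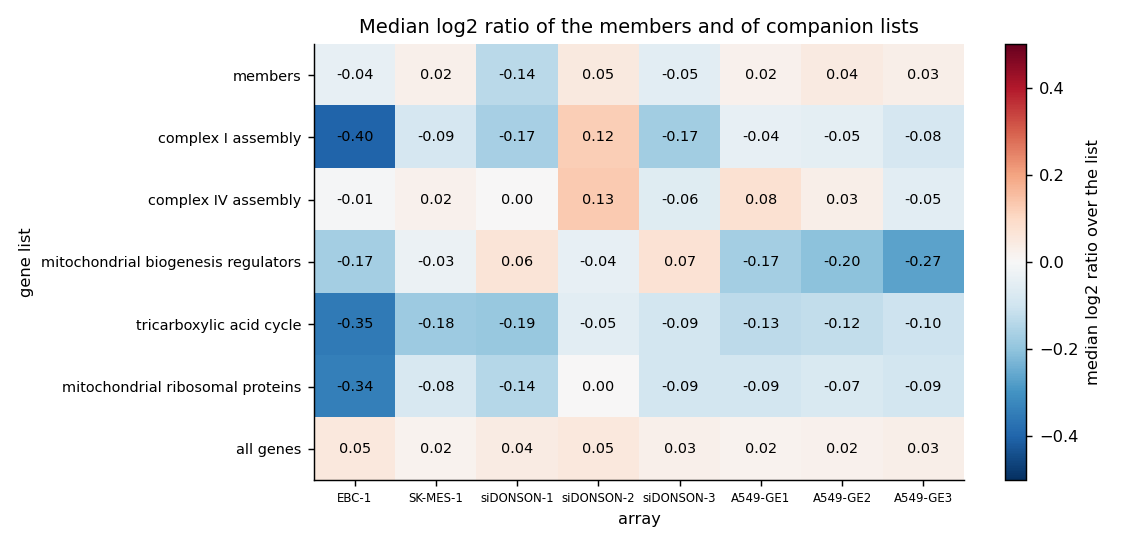
Each cell gives the median log2 ratio of 1 gene list (vertical axis) on 1 array (horizontal axis), with blue below and red above 0. The members stay between -0.14 and 0.05, while ribosomal proteins, tricarboxylic acid cycle enzymes and complex I assembly factors reach -0.34 to -0.40 in EBC-1.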

How the data were processed

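Deposited files were the authors' Agilent Feature Extraction 12.1.1.1 outputs of 8 two-colour arrays (1 slide, protocol GE2_1200_Dec17, design annotated on hg19). Per the file headers, the processed intensity of each channel is background-subtracted and dye-normalized; the deposited value table holds log10 ratios equal to the software's. Groups came from the labels. Accessions were matched to RefSeq: 24782 of 50096 had a symbol. The log2 ratio of red over green processed intensity was averaged over probes. limma 3.58.1 in R 4.3.3 fitted 3 groups over 8 arrays with 5 residual degrees of freedom, testing genes measured on all arrays of a group and adjusting over all of them (Benjamini-Hochberg); contrasts tested differences between groups. In simulated data with 200 of 12864 genes changed, log2 changes of 1 were recovered for 80, 85 and 84 of 100 genes with miR-150-3p, siDONSON and LOXL2-edited. In the same order 7, 12 and 10 unchanged genes were called. The simulation gave a gene the same spread in every group, and changes smaller than 1 were not simulated.

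Named genes were those past a threshold, the lowest and highest of each complex in each group, those beyond 1 on an array, restricted isoforms, their partners, subunit c genes, and CYC1, CYCS, DONSON and LOXL2. The other members and list genes in the text (NDUFB5, NDUFB6, NDUFV2, ATP5F1C, NDUFA9, NDUFS1, NDUFAB1, ATP5PO, NDUFA2, NDUFS6, NRF1 and others) were named after their values were seen. The values of 1 member are not reported here. The members and lists were chosen with earlier results of these data known. Alternatives were normexp with offset 50 and loess (on median signals), median centering, stricter and no dim filter, the brightest probe, the value table, leaving out each array, other groupings, the group's own spread, a replicate block and, added later, the 6 siDONSON and edited arrays alone and neighbour subtraction; control levels were also quantile-normalized. The number of arrays limits precision.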

Additional observations from a re-analysis of the deposited data

Results flagged for a closer look

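Differences between treatments past the threshold in limma were these. For siDONSON minus LOXL2-edited, ATP5F1E differed by -0.57, COX7A2L by 0.74 and UQCRB by 1.09 (adjusted p = 0.0218, 0.0253 and 0.0171). For miR-150-3p minus LOXL2-edited, COX6C differed by 0.68, COX7A2L by 0.81 and UQCRB by 1.098 (adjusted p = 0.0429, 0.0412 and 0.0367). The size of the UQCRB differences depends on the probe, and with the brightest probe miR-150-3p minus LOXL2-edited did not call it.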

How the results depend on the processing

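Counts of called members are given as lower and higher; of the called members, COX6C in edited cells changed sign under 1 alternative, at 0.0452 (adjusted p = 0.797) after neighbour subtraction. With normexp and loess they were 3 and 4 for miR-150-3p (all genes 5.1 and 5.69%), 7 lower for siDONSON (3.63%) and 13 higher for LOXL2-edited (12%). The same setting gave 9 and 5 for siDONSON minus LOXL2-edited (all genes 5.43 and 6.37%). It gave 3 higher for miR-150-3p minus siDONSON (1.84%) and 1 lower for miR-150-3p minus LOXL2-edited (4.01%). For the settings that follow no share over all genes is given, so their counts alone do not tell members from genes in general. Median centering gave 2 and 1 for siDONSON and 1 higher for LOXL2-edited, and moved the member median to -0.11 in EBC-1, to -0.0054 in SK-MES-1 and to -0.0031 over the edited arrays. With both channels above background there were 2 and 1 for siDONSON, 4 higher for LOXL2-edited and 3 lower for siDONSON minus LOXL2-edited. In that setting COX8C lacked a value on 1 siDONSON array and was not tested. The brightest probe gave 2 lower for siDONSON and 4 higher for LOXL2-edited. For miR-150-3p minus LOXL2-edited it gave 2 higher, without UQCRB. With no filter on dim spots miR-150-3p minus LOXL2-edited had 0 higher. Neighbour subtraction gave 3 and 1 for siDONSON, 1 and 0 for LOXL2-edited, 0 and 0 for siDONSON minus LOXL2-edited, and 0 higher for miR-150-3p minus LOXL2-edited. With cell lines as separate groups siDONSON and siDONSON minus LOXL2-edited each had 2 lower, and the 6 arrays of that contrast alone gave 2 lower. With each group's own spread siDONSON had 0 and 0 and LOXL2-edited 13 and 17. With the replicate number as a block, siDONSON minus LOXL2-edited had 0 lower and 1 higher, but same-numbered arrays share only a number (correlations of their deviations -0.02, -0.01 and -0.01 over 13656 genes). Leaving out 1 array at a time gave 0 to 5 and 0 to 2 for miR-150-3p, 0 to 2 and 0 to 2 for siDONSON, 0 to 6 and 1 to 4 for LOXL2-edited, 0 to 3 and 0 to 2 for siDONSON minus LOXL2-edited, 0 to 3 and 0 to 0 for miR-150-3p minus siDONSON, and 0 to 2 and 0 to 3 for miR-150-3p minus LOXL2-edited. The ranges that involve miR-150-3p include fits with 1 array left in that group, whose calls rest on the spread of the other groups. The cause of these changes was not tested. The number of arrays and, for COX8C, COX6B2, COX4I2 and COX6A2, signal near background limit these values.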
